A study of Arabidopsis thaliana with 18 samples.

Results

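The 10 genes described here were chosen as transcripts that were higher in ΔDS than in +WT seeds of Arabidopsis thaliana in each of 3 seed states, out of 33602 genes in each of the authors' deposited tables. They are AT2G30120 (FLX), AT2G31830 (5PTase14), AT3G09710 (IQD1), AT3G28945, AT3G42850, AT3G45060 (NRT2.6), AT4G09590 (NHL22), AT4G09595, AT5G13205 and AT5G13210. The 10 genes were selected by a positive fold change with an adjusted p under 0.05 in the dry, imbibed and salt tables. Their difference between the genotypes is therefore given as a description with no test. The choice also favours genes whose libraries do not overlap between the genotypes. The share of all genes without such overlap was not counted. AT4G09590 lies next to AT4G09595 and AT5G13205 next to AT5G13210, so the 10 genes form 8 loci. Of the 10, 7 are annotated as protein-coding and 3 (AT3G28945, AT4G09595 and AT5G13205) as pseudogenes.

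The ΔDS seeds carry a complementing copy of FLOE1 without its DS segment, a stretch rich in aspartate and serine, and the +WT seeds a complementing copy that is intact. FLOE1 (AT4G28300) encodes a protein that condenses as the seed takes up water. Both genotypes were sampled in 3 states. Dry seeds had no treatment, imbibed seeds were kept on medium with 0 mM NaCl, cold (4 °C) and dark for 5 days and then lit for 4 hours at 22 °C, and salt seeds had the same steps on 220 mM NaCl. Each of the 6 groups had 3 replicates, 18 samples in all. The labels give neither the promoter of the transgene nor the host allele or the number of lines, and whether replicates came from separate plants is not stated, so the spread between them may be technical. FLOE1 transcript was far lower in the seeds labelled ΔDS, with implied means of 180, 293 and 431 normalised counts, against 8288, 13978 and 13777 in the seeds labelled +WT (dry, imbibed and salt, from the authors' deposited tables), or 2.17%, 2.09% and 3.13% of the +WT level. Both groups are labelled as complemented, and these levels go against a comparison of copies at like expression. The low level of FLOE1 transcript, the missing segment, a line difference and an insertion site therefore cannot be told apart between these 2 genotypes, and ΔDS and +WT are used here as names for the seeds so labelled.

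The 7 coding genes come from unrelated families. NHL22 belongs to the NDR1/HIN1-like proteins, named after NDR1, a membrane protein that Arabidopsis needs for several forms of disease resistance. NRT2.6 is one of the high-affinity nitrate transporters. IQD1 binds calmodulin and is known for raising glucosinolates, the defence compounds of the cabbage family, when overexpressed. FLX (FLC EXPRESSOR) is needed for full expression of the flowering repressor gene FLC in plants with an active FRIGIDA gene. 5PTase14 is a phosphatase of the group that removes the 5-phosphate of inositol phosphates and phosphoinositides. AT3G42850 belongs to the kinases that include galactokinase, an enzyme that returns free galactose to nucleotide sugar synthesis, and AT5G13210 encodes a conserved protein with a von Willebrand factor A domain and no role given in the annotation.

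The tables hold a mean, a log2 fold change and its error per gene, with no column per library. The reads in each library were recovered from the mean and the fold change in 29 of the 30 gene and state combinations. In these, the digits allowed a single set of whole numbers within the range searched. The exception was AT3G42850 in imbibed seeds, for which group means implied by the table are given. Recovered libraries cannot be matched to the replicate numbers of the labels and are numbered by falling size factor within a group. The files do not name the direction of a fold change, and positive values were taken as higher in ΔDS seeds because that genotype is named first in the titles. FLOE1 does not settle the direction, since with the opposite one the seeds labelled +WT would have the low level. Size factors ran between 0.854 and 1.16 in dry, 0.786 and 1.21 in imbibed and 0.874 and 1.20 in salt libraries, and normalised counts are reads divided by them. The log2 fold change of FLOE1 itself was -5.53 ± 0.09, -5.58 ± 0.16 and -5.00 ± 0.07 (± SE in the authors' deposited tables, dry, imbibed and salt). One library stood apart, ΔDS library 1 of the salt seeds, in which 1254 genes had reads found in no other salt library, against 147 to 406 such genes in each of the other 17 libraries of their own tables. Without it the log2 ratio of mean normalised counts of the 10 genes in salt seeds ran from 1.25 to 6.56, and no gene moved by more than 0.25. Endosperm and storage transcripts were among the most abundant, as in a mature seed. The endosperm gene EPR1 (AT2G27380) was the most abundant gene of the dry table and the third of the other two, and it was lower in ΔDS seeds, at -0.35, -1.14 and -0.49 in the authors' deposited tables (log2 fold change, dry, imbibed and salt). Storage protein genes were called lower in ΔDS seeds in every state as well, with SESA3 (AT4G27160) at -0.70, -1.54 and -0.60, CRU2 (AT1G03880) at -0.60, -2.12 and -0.996 and SESA5 (AT5G54740) at -0.76, -2.73 and -0.86 in the authors' deposited tables. Their part in the values of the 10 genes was not tested. Fewer cells of a type and less RNA per cell cannot be told apart in these whole seeds.

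NHL22 had the largest difference of the 10 genes in all 3 states and was nearly silent in +WT seeds. It had 511, 435 and 448 reads in the dry ΔDS libraries, against 4, 8 and 2 reads in the dry +WT libraries. Imbibed ΔDS libraries held 25, 17 and 44 reads, and the imbibed +WT libraries held none. In salt seeds it had 294, 254 and 195 reads in ΔDS libraries, against 0, 3 and 3 reads in +WT libraries. The groups stayed apart in every state, and the lowest ΔDS library lay 44.1 times above the highest +WT library in dry seeds. Its normalised count was 432 ± 27.7 in dry ΔDS seeds and 5.02 ± 3.59 in dry +WT seeds, and 223 ± 18.02 in salt ΔDS seeds and 2.25 ± 1.95 in salt +WT seeds (SD, n = 3 each). The log2 fold change in the authors' deposited tables was 6.45 ± 0.41 in dry and 6.68 ± 0.62 in salt seeds (SE). For imbibed seeds, where +WT libraries have no read, the level of 29.5 ± 21.3 in ΔDS seeds (SD, n = 3) was at least 28.4-fold higher than the limit set by 3 reads over the +WT group. Library 3 was the high one, and without it that bound was 16.7-fold. Within ΔDS seeds its level was thus lower in imbibed than in dry or salt seeds, on tables that were scaled separately.

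**Figure D1:**
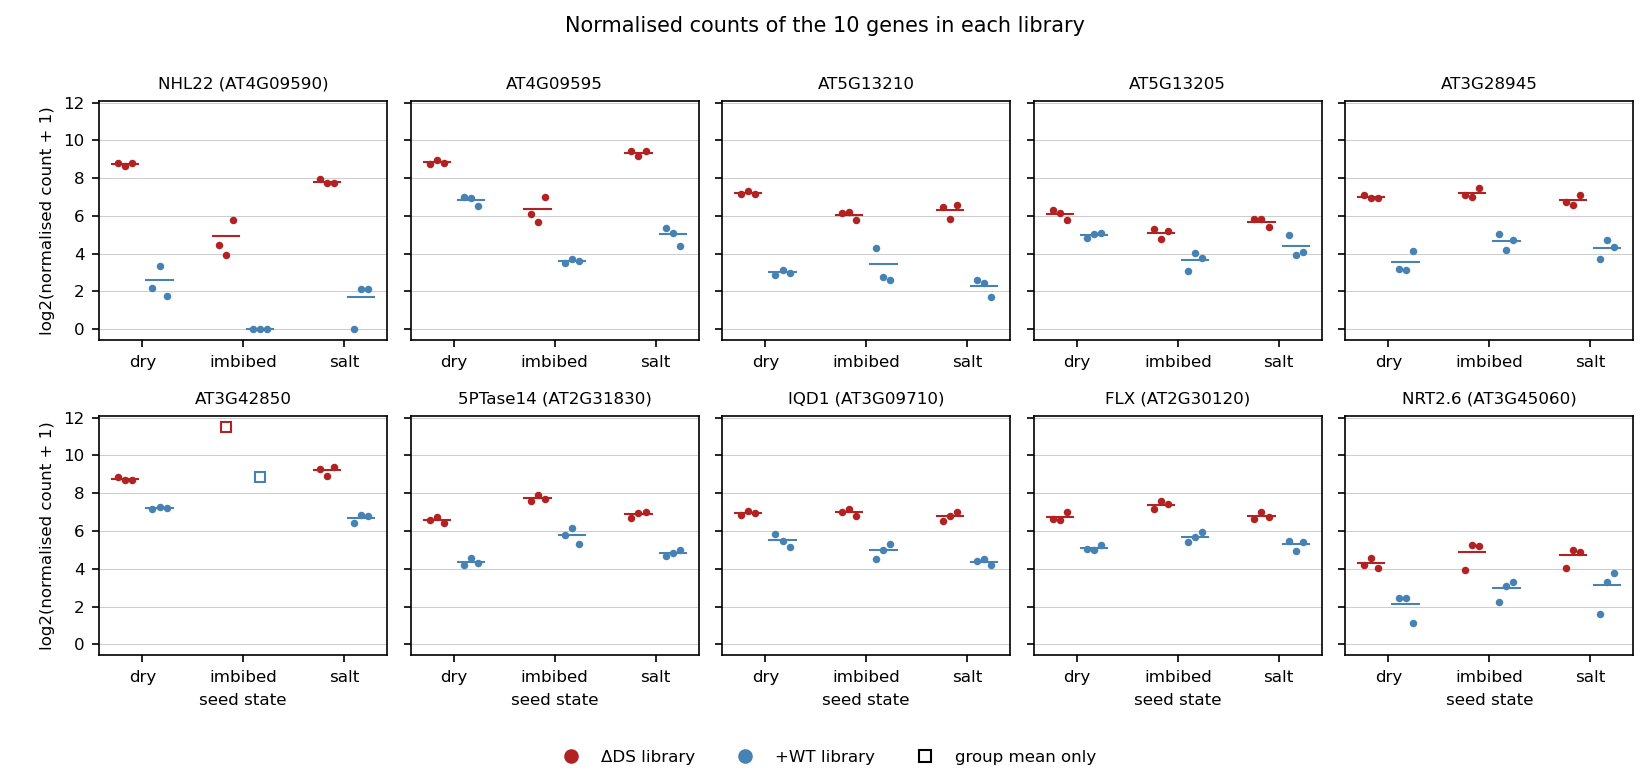
Normalised counts of the 10 genes in each recovered library, as log2(normalised count + 1), by seed state, with ΔDS libraries in red left of +WT libraries in blue and a bar at each mean. Open squares are group means where libraries could not be recovered. In every state shown by points, all 3 ΔDS libraries lie above all 3 +WT libraries, which the choice of the genes favours. NHL22 shows the widest gap.

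NHL22 spans chr4:6066128-6066763 on the plus strand in the TAIR10.1 assembly, as 1 exon of 636 bases. A full-length copy with 9 differing bases, AT2G35970, lies on chromosome 2, beside NHL12 (AT2G35960), which is 89.3% identical. A read of 150 bases cut from NHL22 occurs once in the genome in 86.9% of positions. The stretch where gene and copy differ most, with the differing bases in capitals, shows how far reads can be assigned to one of them. It covers chr4:6066458-6066607 in NHL22 and chr2:15109337-15109486 in the copy, both on the plus strand.
NHL22: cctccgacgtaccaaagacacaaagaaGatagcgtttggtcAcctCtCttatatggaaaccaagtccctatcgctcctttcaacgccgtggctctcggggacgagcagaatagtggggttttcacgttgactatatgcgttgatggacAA
AT2G35970: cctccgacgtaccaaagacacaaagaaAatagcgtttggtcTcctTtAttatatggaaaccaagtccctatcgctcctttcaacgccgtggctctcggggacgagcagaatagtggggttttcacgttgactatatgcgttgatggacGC
Values at the copies were far below those of NHL22. AT2G35970 had a mean of 0.983 normalised counts over the dry libraries, 0 over the imbibed and 2.30 over the salt libraries in the authors' deposited tables, and NHL12 had 0.454, 0.456 and 0. The log2 fold change of AT2G35970 there was 3.31 ± 2.38 in dry seeds, without an adjusted p. In salt seeds it was 4.52 ± 1.78 (SE, adjusted p = 0.071). NHL12 was at -2.44 ± 3.43 in dry and -0.94 ± 3.57 in imbibed seeds, without an adjusted p. An antisense gene, AT4G09589, overlaps 196 bases of NHL22 and was not analysed here. The sources used here do not state strandedness, so reads of the pair cannot be told apart.

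AT4G09595, a pseudogene of 4081 bases, starts 1162 bases downstream of NHL22 on the same strand. It had 504, 549 and 436 reads in dry ΔDS libraries, against 142, 108 and 77 reads in dry +WT libraries. The imbibed counts were 83, 61 and 105 reads in ΔDS libraries and 11, 13 and 9 reads in +WT libraries. Its widest gap was in salt seeds, with 822, 682 and 646 reads in ΔDS libraries and 40, 30 and 18 reads in +WT libraries. Means in salt seeds were 653 ± 68.2 normalised counts in ΔDS and 31.5 ± 10.2 in +WT (SD, n = 3 each). No library of either genotype reached the range of the other in any state. In the authors' deposited tables its log2 fold change was 2.01 ± 0.15 (dry), 2.84 ± 0.47 (imbibed) and 4.36 ± 0.20 (salt) (SE). The difference of 2.35 ± 0.25 between the salt and the dry fold change (SE from both tables) was the largest between states among the 10 genes relative to its error. On separately scaled tables, ΔDS seeds had 653 normalised counts with salt and 461 ± 39.1 when dry, and +WT seeds had 31.5 with salt and 114 ± 20.8 when dry. AT4G09595 shares most of its sequence with AT5G57126 on chromosome 5, and 85.5% of its 150-base windows occur once. The stretch of chr4:6068997-6069146 (plus strand) and the same part of the copy, chr5:23138186-23138335 (minus strand), hold the most differences, in capitals, of the gap-free block of 1234 bases at the start of the gene, which has 13 in all.
AT4G09595: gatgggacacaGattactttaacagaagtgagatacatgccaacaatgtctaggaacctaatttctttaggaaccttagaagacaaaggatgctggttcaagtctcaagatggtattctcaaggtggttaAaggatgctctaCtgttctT
AT5G57126: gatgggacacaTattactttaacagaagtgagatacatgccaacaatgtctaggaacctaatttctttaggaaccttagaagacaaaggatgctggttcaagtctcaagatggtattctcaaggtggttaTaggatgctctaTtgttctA
The copy followed the same direction at a lower level. AT5G57126 had a log2 fold change of 3.63 ± 0.81 in dry and 6.22 ± 1.29 in salt seeds in the authors' deposited tables, both called at an adjusted p under 0.05, on means of 13.4 and 14.8 normalised counts, and 4.17 ± 1.97 in imbibed seeds on a mean of 1.78 (adjusted p = 0.077). AT1G48680, the copy that matches over the full length, had means of 0, 0 and 0.501.

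AT5G13210 was the next largest among the coding genes. Dry ΔDS libraries held 162, 170 and 142 reads, against 7, 7 and 6 reads in the dry +WT libraries. In imbibed seeds it had 85, 87 and 45 reads in ΔDS libraries and 20, 6 and 4 reads in +WT libraries. Salt ΔDS libraries had 105, 67 and 87 reads, against 5, 4 and 2 reads in the salt +WT libraries. The smallest gap was in imbibed seeds, where +WT library 1 was high and the lowest ΔDS library lay 2.88 times above it. Without that library the imbibed log2 ratio of means was 3.61, against 2.72 with it. In the authors' deposited tables the log2 fold change was 4.38 ± 0.38 (dry), 2.70 ± 0.50 (imbibed) and 4.32 ± 0.55 (salt) (SE). AT5G13210 covers chr5:4213955-4216908 on the plus strand as 1 exon, and all of its 150-base windows occur once. Its relative AT3G24780, 82.9% identical over 1548 bases, had means of 0, 0.552 and 0. AT5G13210 had 12 matches elsewhere in the genome. Those outside AT3G24780 covered only the start of the gene, over 150 to 175 bases at 80% to 93.8% identity.

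AT5G13205, a pseudogene of 4071 bases, lies 1363 bases from AT5G13210 and points the other way. It had the smallest fold change of the 10 genes in each state. Its reads were 92, 75 and 53 in dry ΔDS libraries and 30, 28 and 28 in dry +WT libraries. In imbibed seeds there were 46, 32 and 29 reads in ΔDS libraries, against 8, 16 and 10 in +WT libraries. Salt seeds had 68, 66 and 38 reads in ΔDS libraries and 30, 13 and 14 in +WT libraries. The groups did not overlap, although the lowest salt ΔDS library lay 1.35 times above the highest salt +WT library. The log2 fold change in the authors' deposited tables was 1.15 ± 0.31, 1.49 ± 0.47 and 1.33 ± 0.40 (SE; dry, imbibed and salt). AT5G13205 belongs to a family of near-identical loci, with 4 matches over its whole length at up to 99.6% identity, and 32.3% of its 150-base windows occur once. The stretch that differs most from the closest match shows how alike they are, with the differing bases in capitals. It lies at chr5:4211953-4212102 (minus strand), and at chr1:3781724-3781873 (plus strand) in AT1G11265, from which AT5G13205 differs at 18 of 4071 bases.
AT5G13205: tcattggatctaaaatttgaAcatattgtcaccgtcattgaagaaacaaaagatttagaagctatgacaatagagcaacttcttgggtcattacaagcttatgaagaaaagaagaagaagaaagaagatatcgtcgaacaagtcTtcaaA
AT1G11265: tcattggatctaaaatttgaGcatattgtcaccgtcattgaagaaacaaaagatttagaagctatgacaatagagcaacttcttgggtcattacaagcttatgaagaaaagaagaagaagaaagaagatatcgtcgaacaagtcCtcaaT
Of these copies, AT1G48710 was called higher in dry and imbibed seeds in the authors' deposited tables (2.71 ± 0.91, adjusted p = 0.048, and 5.40 ± 1.53, adjusted p = 0.002) on means of 7.99 and 4.11 normalised counts, and missed the threshold in salt seeds (2.28 ± 0.89, adjusted p = 0.068). AT3G59720, 99.3% identical over most of the gene, had high values too, at 2.82 ± 1.14, 3.89 ± 1.98 and 2.59 ± 1.57 (dry, imbibed and salt) in the authors' deposited tables, on means of 5.79, 1.44 and 2.56 normalised counts. It was not called in dry or salt seeds (adjusted p = 0.14 and 0.321) and had no adjusted p in imbibed seeds. In the authors' deposited tables AT1G11265, AT1G58140 and AT3G61330 had values between 0.07 and 0.76 and none was called. The sources used here do not state how reads with several matches were counted, so the values of AT5G13205 and its copies are uncertain.

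**Figure D2:**
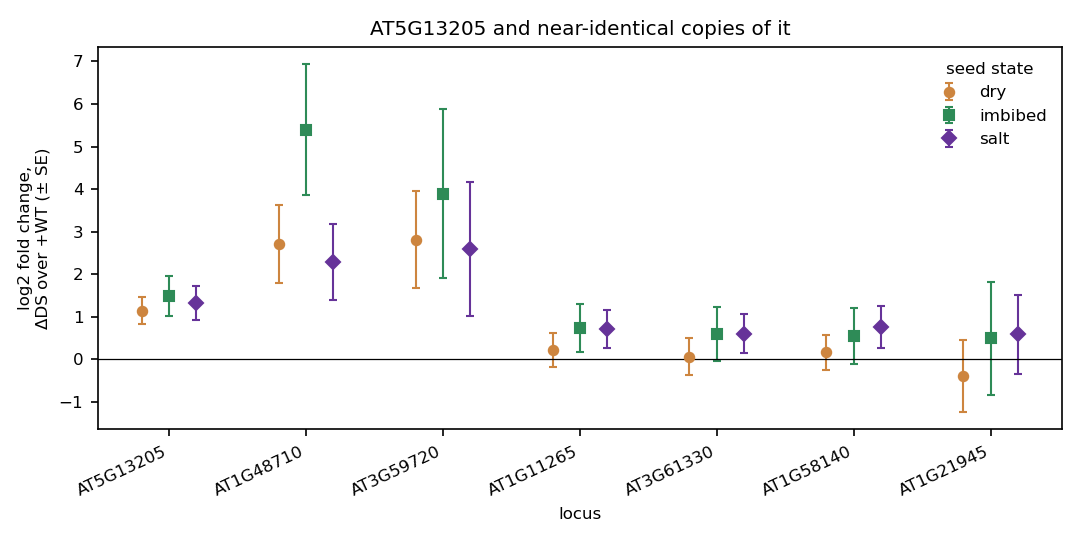
Log2 fold change of ΔDS over +WT (± SE, authors' deposited tables) of AT5G13205 and 6 near-identical loci in each seed state. AT1G48710 and AT3G59720 lie above AT5G13205 with wide errors, and the other 4 lie between -0.39 and 0.76.

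AT3G28945, the third pseudogene, is a single exon of 5675 bases at chr3:10970273-10975947 on the minus strand. It had 157, 135 and 122 reads in dry ΔDS libraries, against 9, 7 and 14 reads in dry +WT libraries. In imbibed seeds it had 165, 155 and 146 reads in ΔDS libraries and 33, 18 and 20 reads in +WT libraries. In salt seeds there were 126, 114 and 125 reads in ΔDS libraries and 12, 23 and 17 reads in +WT libraries. ΔDS libraries were steady across states, at means of 128, 148 and 112 normalised counts in dry, imbibed and salt seeds, and the +WT means were 10.8, 24.7 and 19.1. The log2 fold change in the authors' deposited tables was 3.59 ± 0.35, 2.58 ± 0.31 and 2.56 ± 0.33 (SE). Its 1 copy, AT3G27883, is 95.7% identical and had means of 0.169, 0 and 0, and 97.8% of the windows of AT3G28945 occur once.

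AT3G42850, the sugar kinase relative, was the most abundant of the 10 genes in imbibed seeds per kilobase of exon. Dry ΔDS libraries had 529, 459 and 412 reads, against 158, 134 and 128 reads in the dry +WT libraries. Salt ΔDS libraries had 738, 576 and 625 reads, against 83, 103 and 96 reads in the salt +WT libraries. In imbibed seeds the means implied by the authors' deposited table were 2876 normalised counts in ΔDS and 463 in +WT. The groups did not overlap in the 2 states with recovered reads. Its log2 fold change in the authors' deposited tables was 1.54 ± 0.13 (dry), 2.64 ± 0.23 (imbibed) and 2.53 ± 0.16 (salt) (SE), with salt above dry by 0.98 ± 0.21 and imbibed above dry by 1.09 ± 0.26. The gene spans chr3:14940002-14945319 on the minus strand with 28 exon blocks and had no second match in the genome.

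The 3 genes with regulatory roles, 5PTase14, IQD1 and FLX, had moderate differences on similar counts. 5PTase14 had 112, 115 and 85 reads in dry ΔDS libraries, against 19, 20 and 16 reads in dry +WT libraries. Its imbibed reads were 230, 292 and 167 in ΔDS libraries and 57, 74 and 31 in +WT libraries, and its salt reads were 125, 147 and 116 in ΔDS libraries and 24, 25 and 27 in +WT libraries. All ΔDS libraries of this phosphatase gene lay at least 2.70 times above every +WT library of the same state. The authors' deposited tables gave it 2.31 ± 0.31, 1.94 ± 0.25 and 2.09 ± 0.28 (log2 fold change ± SE; dry, imbibed and salt), values that differ by less than 1 SE of their difference. 5PTase14 (chr2:13532483-13537800, minus strand) overlaps AT2G31820 on the other strand by 866 bases. AT2G31820 is the more abundant of the pair, with a mean of 1318 normalised counts in dry seeds, and its log2 fold changes in the authors' deposited tables were 0.13, -0.43 and -0.13, of which the imbibed value was called lower.

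IQD1 had 132, 144 and 121 reads in dry ΔDS libraries, against 63, 38 and 30 reads in dry +WT libraries. It had 153, 175 and 89 reads in imbibed ΔDS libraries and 23, 33 and 31 in imbibed +WT libraries. In salt seeds the reads were 110, 133 and 119 in ΔDS libraries and 20, 20 and 15 in +WT libraries. The gap was narrowest in dry seeds, where +WT library 1 came within 1.99 times of the lowest ΔDS library. The log2 fold change of IQD1 (chr3:2976572-2979784, minus strand) in the authors' deposited tables was 1.43 ± 0.25 (dry), 2.06 ± 0.30 (imbibed) and 2.47 ± 0.32 (salt) (SE). Means in ΔDS seeds were 123, 127 and 111 normalised counts in dry, imbibed and salt seeds, and those in +WT seeds were 45.2, 31.0 and 19.9.

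FLX had 115, 103 and 126 reads in dry ΔDS libraries, against 36, 27 and 32 reads in dry +WT libraries. There were 172, 229 and 140 reads in imbibed ΔDS libraries and 44, 52 and 48 in imbibed +WT libraries, and 117, 153 and 96 reads in salt ΔDS libraries and 42, 27 and 37 in salt +WT libraries. Every ΔDS library lay at least 2.27 times above every +WT library of its state. The fold change of FLX (chr2:12860147-12861971, minus strand) was the most even of the 10 genes across states, at 1.67 ± 0.27, 1.73 ± 0.25 and 1.52 ± 0.28 in the authors' deposited tables (log2, SE), a range of 0.21.

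NRT2.6 had the fewest reads of the 10 genes in dry and salt seeds and lies nearest to the threshold that chose them. It had 20, 25 and 15 reads in dry ΔDS libraries, against 5, 4 and 1 in dry +WT libraries. Imbibed ΔDS libraries held 17, 45 and 29 reads and imbibed +WT libraries 4, 8 and 7 reads. Salt ΔDS libraries held 19, 37 and 26 reads and salt +WT libraries 2, 8 and 11 reads. The groups did not overlap, but the lowest salt ΔDS library was only 1.25 times above the highest salt +WT library. In the authors' deposited tables the log2 fold change was 2.41 ± 0.72, 2.11 ± 0.63 and 1.69 ± 0.63 (SE; dry, imbibed and salt), with an adjusted p of 0.0492 in salt seeds, just inside the threshold of 0.05. Adjusted over every gene with a p, it was no longer called in salt seeds. NRT2.6 covers chr3:16477561-16479559 on the minus strand, and all of its 150-base windows occur once.

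**Figure D3:**
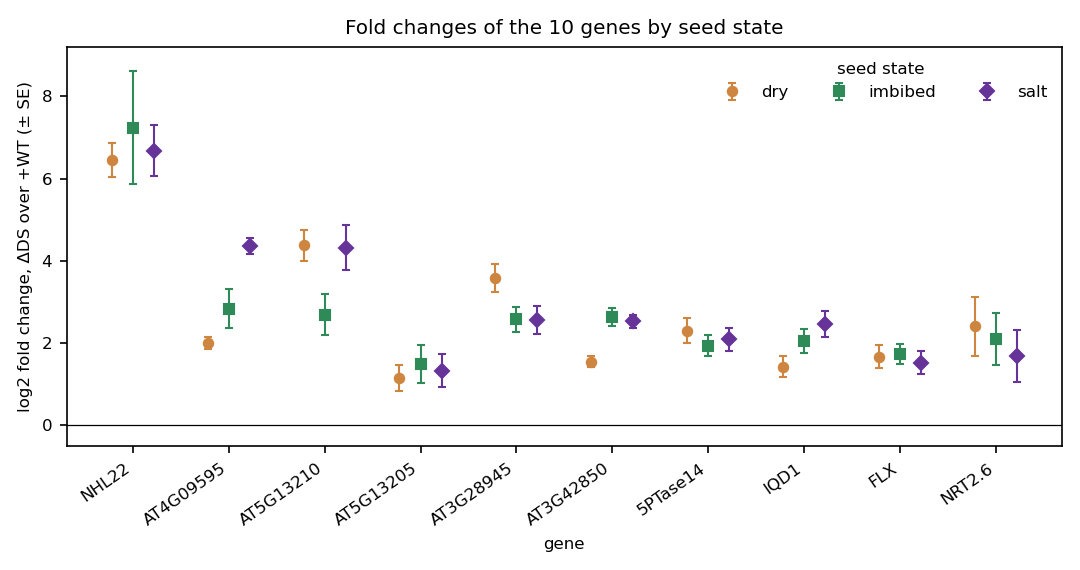
Log2 fold change of ΔDS over +WT (± SE, authors' deposited tables) of the 10 genes in dry, imbibed and salt seeds. NHL22 stands above the rest, at 6.45 in dry and 6.68 in salt seeds, while its point for imbibed seeds is a fitted value over +WT libraries without a read and gives no size, AT4G09595 is highest in salt seeds, AT5G13210 is lowest in imbibed seeds, and FLX and 5PTase14 are level across states.

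Across the 10 genes the median log2 fold change in the authors' deposited tables was 2.16 (dry), 2.34 (imbibed) and 2.50 (salt), beside medians of 0.00, 0.02 and 0.00 over all genes with an adjusted p. All 10 were called higher in each state because the rule required it. Over all tested genes 2.96% were called higher in ΔDS seeds in the dry table, 21.3% in that of imbibed seeds and 6.98% in that of salt seeds, and 0.415% of the genes tested in all 3 tables were called higher in each of them. Compared per kilobase of exon, the genes were of low abundance in +WT seeds. The implied level per kilobase of NHL22 lay at percentile 83.5 of the tested genes in dry ΔDS seeds and at percentile 7.92 in dry +WT seeds. That of AT5G13210 lay at percentile 30.0 in dry ΔDS seeds and 1.04 in dry +WT seeds, and that of NRT2.6 at 9.82 in dry ΔDS and 0.591 in dry +WT seeds. The level per kilobase of AT3G42850 was the highest of the 10 in +WT seeds in all 3 states, at percentile 86.5 in imbibed ΔDS seeds and 44.7 in imbibed +WT seeds. In dry ΔDS seeds the order of implied levels per kilobase was NHL22 (679 normalised counts per kilobase), AT3G42850 (143), AT4G09595 (113), FLX (61.7), IQD1 (51.9), AT5G13210 (49.7), 5PTase14 (23.6), AT3G28945 (22.6), AT5G13205 (16.6) and NRT2.6 (9.65). FLX and IQD1, IQD1 and AT5G13210, and 5PTase14 and AT3G28945 are neighbours in that order whose means differ by less than the larger SD of their libraries.

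Treatment of the error bears on these calls. Under a t distribution with 4 degrees of freedom, in place of the normal one of the authors' test, none of the 10 genes was called in any state after adjustment. Over all tested genes, 0, 0 and 2 were then called higher in dry, imbibed and salt seeds, so this setting could call hardly any gene. An unadjusted p under 0.05 was kept by 10, 10 and 9 of the 10 genes, which their selection favours. Over all tested genes, 599 of 16597, 3297 of 19430 and 1225 of 18518 were higher at that unadjusted p. In imbibed seeds the embryo genes PDF1 (AT2G42840) and SHR (AT4G37650), at 2.04 and 1.83, and the seed coat gene TTG2 (AT2G37260), at 2.06, were higher in ΔDS seeds in the authors' deposited table. PDF1 was at -0.14 in dry and 0.12 in salt seeds, SHR at a mean of 0.190 normalised counts in dry seeds and -0.12 in salt seeds, and TTG2 was not called in dry or salt seeds. The part of tissue makeup in the imbibed values of the 10 genes was not tested.

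The loci beside the 10 genes show how far a difference extends along the chromosome. Of 80 loci within 5 places of the 8 member loci, 47 had an adjusted p in the dry table, and 2 were higher and 2 lower in ΔDS seeds, 8.51% against 6.06% of all tested genes called in either direction. In imbibed seeds 12 of 53 were higher and 8 lower, 37.7% against 40.8% of all tested genes, and in salt seeds 3 of 53 were higher and 4 lower, 13.2% against 14.0%. The median log2 fold change of the tested neighbours was -0.02, 0.02 and 0.11, in dry, imbibed and salt seeds. Among the 16 nearest loci, those beside genes other than NHL22 and AT4G09595 had values between -0.28 and 0.51 in dry, -0.84 and 0.48 in imbibed and -0.53 and 0.24 in salt seeds in the authors' deposited tables (11 tested in each state). Only AT3G28940, beside AT3G28945, was called higher among these in dry seeds, at 0.51. In imbibed seeds AT3G09700 and AT3G09720, on either side of IQD1, were called higher at 0.48 and 0.47. Called lower there were AT2G31820 (-0.43) and AT2G31840 (-0.33) beside 5PTase14, and AT2G30130 (-0.41) beside FLX. In salt seeds AT3G42860 beside AT3G42850 was called higher at 0.24, and AT5G13200 beside AT5G13205 lower at -0.53. JAZ10 (AT5G13220), a repressor of jasmonate signalling that follows AT5G13210, was at -0.21, 0.15 and -0.40 and was not called in any of the authors' deposited tables.

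The NHL22 locus was the one with called neighbours in every state. Elsewhere, scpl48 (AT3G45010) near NRT2.6 was called higher in imbibed and salt seeds, at 2.76 and 2.32 in the authors' deposited tables. NAC083 (AT5G13180) near AT5G13205 was likewise higher, at 2.09 and 1.91. AT2G30100 near FLX was called lower in the same states, at -0.80 and -0.35. Upstream of NHL22, the transcribed pseudogene AT4G09584 had 20, 12 and 23 reads in dry ΔDS libraries and none in dry +WT libraries, at least 16.3-fold higher than the limit set by 3 reads over the +WT group, and at least 9.94-fold without +WT library 1, as the limit then rests on fewer libraries. It was called higher in the dry table (adjusted p = 0.0001015), had 5, 9 and 2 reads in salt ΔDS libraries and none in salt +WT libraries (adjusted p = 0.071), and was listed at 0 in imbibed seeds. On the other side the direction turned. GASA3 (AT4G09600) and GASA2 (AT4G09610), genes of small cysteine-rich peptides of the gibberellin-regulated GASA family, lie 797 bases and further beyond AT4G09595. GASA3 is on the minus strand, so its end and not its start faces AT4G09595. Both genes were lower in all 3 states, as were 1.21% of the genes tested in all 3 tables. In the authors' deposited tables GASA3 had -0.89 ± 0.06, -1.86 ± 0.50 and -1.01 ± 0.05 and GASA2 had -0.85 ± 0.06, -2.49 ± 0.25 and -1.25 ± 0.07 (log2 fold change ± SE; dry, imbibed and salt). The consecutive loci AT4G09584, NHL22 and AT4G09595, were thus higher in dry ΔDS seeds, followed by 2 that were lower. Near AT3G42850, the pseudogene AT3G42820 had reads in ΔDS libraries only, with 3, 13 and 7 reads in dry seeds, 2, 17 and 1 in imbibed seeds and 4, 3 and 6 in salt seeds, and was called higher in the imbibed table, and the 4 loci between them were at or near 0.

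**Figure D4:**
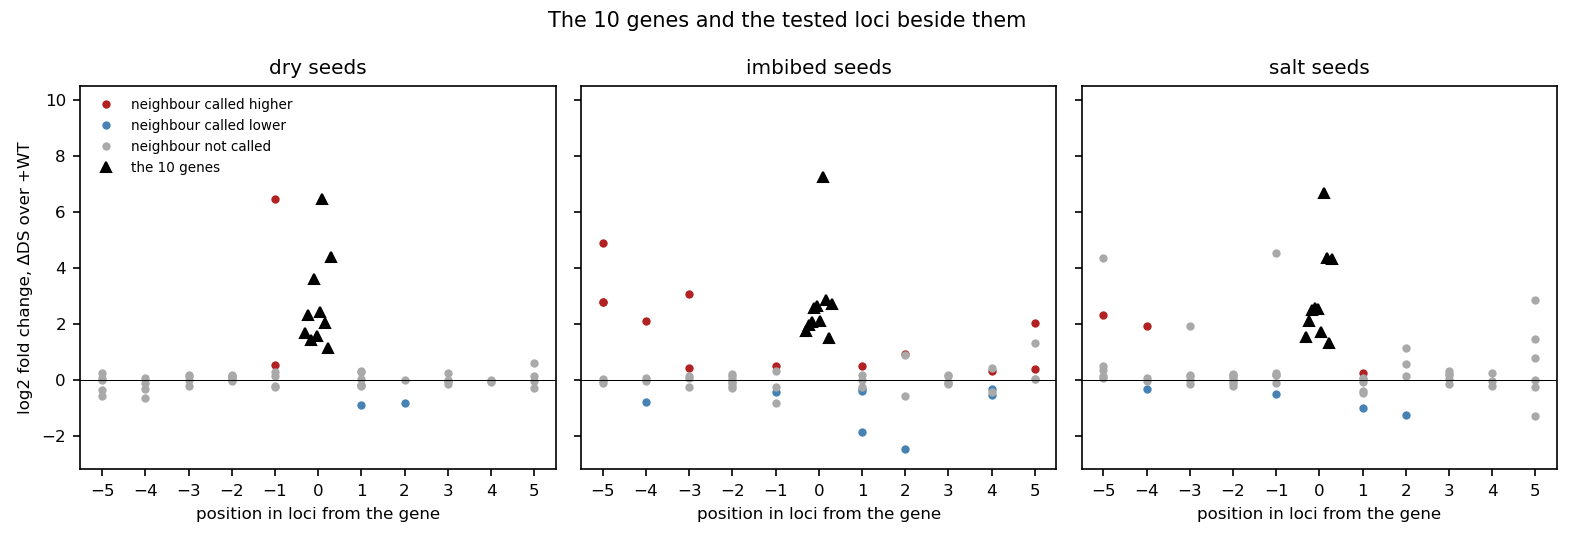
Log2 fold change of ΔDS over +WT (authors' deposited tables) of the 10 genes (triangles, at 0, spread sideways) and of the tested loci up to 5 places to either side, in 1 panel per seed state. Neighbours called higher are red, called lower blue and not called grey. Most neighbours lie near 0 in dry and salt seeds, and the lowest blue points 1 and 2 places to the right are GASA3 and GASA2. In imbibed seeds ASL5 (AT2G30130), at -0.41, and MRL7-L (AT2G31840), at -0.33, are also blue 1 place to the right.

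The window from 250 bases before the annotated start of NHL22 to 50 bases after it was searched on both strands for 3 motifs, as it was for every gene. These were ACGTG, the core of the abscisic acid response element, CACGTG, the G-box that contains it, and TTGAC, the core of the W-box bound by WRKY factors. NHL22 had 1 match, to TTGAC, given in capitals in its window at chr4:6065878-6066177 (plus strand).
NHL22: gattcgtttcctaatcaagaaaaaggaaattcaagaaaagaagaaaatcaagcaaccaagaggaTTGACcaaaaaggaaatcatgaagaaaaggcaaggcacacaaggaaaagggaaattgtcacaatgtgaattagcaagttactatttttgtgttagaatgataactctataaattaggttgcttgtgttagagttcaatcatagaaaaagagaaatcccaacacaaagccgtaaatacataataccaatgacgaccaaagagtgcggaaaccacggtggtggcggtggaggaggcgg
Of the 10 genes, 3 had TTGAC (50% of 32834 windows), 4 had ACGTG (25.4%) and 0 had CACGTG (6.9%). AT5G13210 had none of the 3 motifs in its window. The annotated start of NHL22 is that of its coding sequence, so the window need not hold the true promoter.

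Relatives of the coding genes did not share the pattern as families. Over 8 lists of family and pathway genes, 54, 65 and 62 had an adjusted p in the dry, imbibed and salt tables, of which 4, 18 and 7 were called in either direction. These are 7.41%, 27.7% and 11.3%, beside 6.06%, 40.8% and 14.0% of all tested genes. Of 8 further NHL genes, 3 were tested in dry and 4 in imbibed and salt seeds, and none was called. This list was made by symbol and product name and leaves out AT2G35970, the copy of NHL22 described above. Among 11 genes of nitrate uptake and reduction, 1 was called higher in dry, 1 higher and 2 lower in imbibed and 1 higher in salt seeds. WR3 (AT5G50200), the partner protein of NRT2 transporters, was the one raised in imbibed and salt seeds, at 1.43 ± 0.30 and 2.11 ± 0.34 in the authors' deposited tables, and had 0.33 ± 0.26 in dry seeds. NIR1 (AT2G15620), nitrite reductase, was higher in dry seeds at 0.29 ± 0.09, while NRT1.1 (AT1G12110), a nitrate transporter and sensor, was lower in imbibed seeds at -0.32 ± 0.09 in the authors' deposited tables.

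Of 32 further IQD genes, 1 of 21 tested was higher in dry, 7 of 25 were higher and 2 lower in imbibed, and 2 of 24 were higher and 1 lower in salt seeds. Beside these and the counts for the other lists, 2.96%, 21.3% and 6.98% of all tested genes were called higher (dry, imbibed and salt). IQD2 (AT5G03040) was at 0.72 ± 0.15 and IQD31 (AT1G74690) at 0.94 ± 0.20 in imbibed seeds, and IQD23 (AT5G62070) at 0.73 ± 0.15 in salt seeds, in the authors' deposited tables. The lower ones there were IQD14 (AT2G43680) at -0.56 ± 0.13 in imbibed seeds and IQD11 (AT5G13460). IQD11 was at -0.56 ± 0.19 in imbibed and -0.37 ± 0.11 in salt seeds. Of the 17 genes of glucosinolate synthesis, the pathway linked to IQD1, none of 5 tested was called in dry, 2 of 10 were higher in imbibed and none of 8 was called in salt seeds. The 2 were MYB34 (AT5G60890), a regulator of indole glucosinolates, at 1.49 ± 0.32 and the sulfotransferase SOT16 (AT1G74100) at 0.67 ± 0.23 in the authors' deposited table.

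FLC (AT5G10140), the gene whose expression FLX promotes, was higher in 2 of the 3 states. Its log2 fold change in the authors' deposited tables was 0.75 ± 0.07 in dry and 0.76 ± 0.08 in salt seeds, both called, and 0.01 ± 0.20 in imbibed seeds (adjusted p = 0.98). In a list of 9 genes made of FLC, the FLX family and the FRIGIDA complex, FLC was the 1 called higher in dry and in salt seeds, and none of the other 8 was called higher in any state. SUF4 (AT1G30970), a zinc finger protein of that complex, was lower in imbibed and salt seeds at -0.40 ± 0.11 and -0.29 ± 0.08, and AT1G55170 was lower in imbibed seeds at -0.40 ± 0.15, in the authors' deposited tables. Among 5 other inositol polyphosphate 5-phosphatases, 5PTASE11 (AT1G47510) was higher in dry seeds at 3.31 ± 0.97 and 5PTase12 (AT2G43900) lower in imbibed seeds at -0.45 ± 0.13 in the authors' deposited tables. Of 6 genes of nucleotide sugar salvage, the arabinose kinase gene ARA1 (AT4G16130) was higher in imbibed seeds at 0.48 ± 0.15 and MUR4 (AT1G30620) in salt seeds at 0.34 ± 0.11 in the authors' deposited tables. The relative of AT5G13210 was not tested in any state.

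The 10 genes are a part of 67 that were called higher in all 3 states. No single value separates them from the other 57. Ranked by the smallest of the 3 fold changes, 2 of the 10, NHL22 and AT5G13210, stand among the first 10, and AT5G13205 stands at rank 24. Above it are 11 unlisted genes, with 3 more that belong to a run of glycosyltransferase genes on chromosome 3. The 5 unlisted genes with the largest smallest fold change outside that run were AT1G37070 (5.89), AT1G24792 (5.71), AT1G24879 (5.22), AT5G44565 (4.13) and AT4G08100 (3.95), in log2 units of the authors' deposited tables. Their means lay between 5.81 and 13.2 normalised counts in dry, 9.19 and 73.9 in imbibed and 6.64 and 76.5 in salt seeds. Of these 5, 4 are annotated as pseudogenes. Among the 25 genes that were at least 2-fold higher in each state, 9 are pseudogenes (36%). Without a fold limit, pseudogenes are 3 of the 10 genes described here and 7 of the other 57 (12.3%). They are 2 of the 196 genes that were lower in all 3 states (1.02%), also without a fold limit. Of the 16156 genes with an adjusted p in all 3 tables they are 244 (1.51%). Over all 33602 genes, tested or not, they are 4837 (14.4%).

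**Figure D5:**
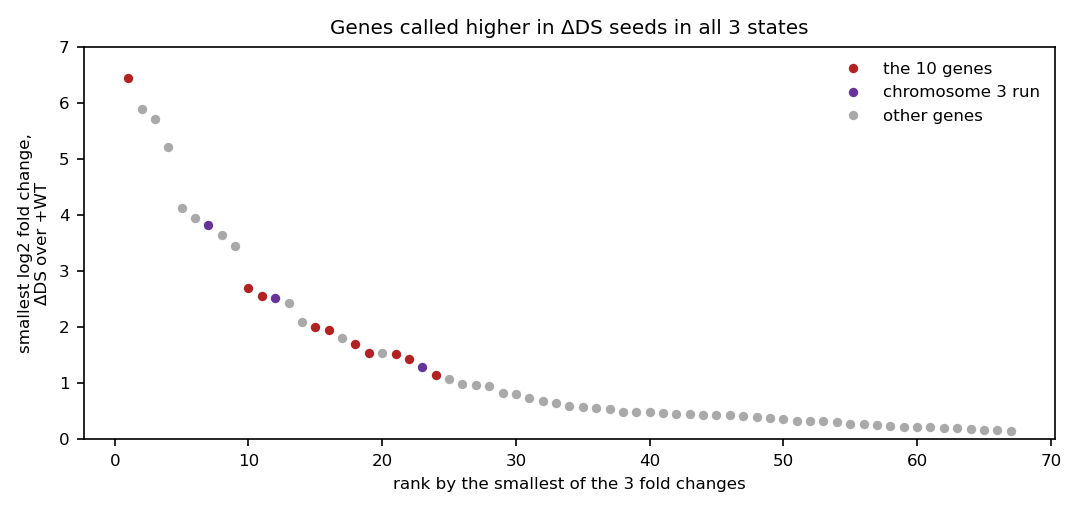
The 67 genes called higher in ΔDS seeds in all 3 states, ranked by the smallest of their 3 log2 fold changes (authors' deposited tables). The 10 genes (red) lie between ranks 1 and 24 with unlisted genes (grey) and 3 genes of the chromosome 3 run (purple) among them.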

How the data were processed

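Seeds were sequenced as 18 paired-end libraries of 150-base reads. The submitters' processing notes name HISAT2, DESeq2 and TAIR10 and give no versions. The sources used here do not state the counter, strandedness or handling of reads with several matches. Per the file headers, each deposited table has DESeq2's columns. The authors' signal column is mean normalised coverage, that is reads over size factors. Fold changes and errors are the authors' log2 values, the deposited Wald statistic is a score, and both the p-value and its adjusted form are as deposited. A gene was called at the authors' deposited adjusted p under 0.05, adjusted over all tested genes. The 10 genes and the lists were chosen with earlier results of these data known. Named genes were the 10, their nearest loci, neighbours called alike in all 3 states and the 5 unlisted genes of largest smallest fold change. FLOE1 and up to 3 genes per list by adjusted p were named too, as printed in part. AT3G42820, scpl48, NAC083, AT2G30100, NIR1, the lower IQD genes, the copies and the tissue markers were added after their values were seen.

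Reads per library were solved as whole numbers from the deposited mean, with the value of 1 read taken from genes with a single read, and kept where a negative binomial fit of them gave the deposited fold change within 2.13e-14 (dry, salt) or 5.15e-10 (imbibed). Tested on simulated rows, 25 of 25 per table were solved right. The range of means and fold changes that was simulated is not given here. The check may therefore not extend to rows of high mean or large fold change. Examples are AT3G42850 in salt seeds (mean of 348 normalised counts) and NHL22 in dry seeds (log2 fold change of 6.45). Implied means assume 3 libraries per genotype. Names, exons and sequences are from RefSeq TAIR10.1. Copies were sought with blastn 2.17.0 (identity of at least 80% over 150 bases). Python 3.11.15, numpy 2.4.6, pandas 2.3.3 and scipy 1.17.1 were used. The precision rests on 3 libraries per group, whose depth is given as size factors.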

Additional observations from a re-analysis of the deposited data

How the results depend on the processing

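The 10 genes stayed higher in ΔDS seeds and called in all 3 states when fold changes were scaled by library totals (log2 1.23 to 7.43) or centred on the median gene (1.14 to 7.22). Leaving out a recovered library could not turn a log2 ratio of means negative, because the recovered groups did not overlap. It shows only how far the sizes moved. Wherever +WT libraries had reads, the ratios ran from 1.00 to 7.18 (dry), 1.25 to 3.61 (imbibed) and 1.13 to 7.07 (salt). Those moved by 1.5 times or more were NHL22 without dry +WT library 2 (7.18 against 6.43) and without salt +WT library 1 (6.05 against 6.63), and AT5G13210 in imbibed seeds without +WT library 1. For NHL22 in imbibed seeds, with no +WT read, the lower bound of 28.4-fold ran from 16.7 (without ΔDS library 3) to 35.8, and was 18.05, 18.05 and 20.6 without each +WT library. Scaling by library totals shifted all log2 fold changes by 0.08 (dry), 0.19 (imbibed) and 0.16 (salt) and gave 1202, 6349 and 3757 genes called higher (82.9%, 77.2% and 89.8% of calls, against 48.9%, 52.1% and 50% as deposited, that is 491, 4130 and 1292 genes), 8 neighbours called in dry and 18 in salt seeds, and 7 list genes in dry seeds. Asking for at least 2-fold left 86, 1471 and 283 genes called higher in dry, imbibed and salt seeds, 1, 8 and 4 neighbours, 1, 6 and 1 list genes, and 25 of the 67 genes higher in all 3 states; an adjusted p of 0.01 in each table left 43. With a t distribution of 4 degrees of freedom on the authors' DESeq2 statistic, 0 genes were called higher in dry and imbibed and 2 in salt seeds, with 0 neighbours and 0 list genes in each state; at an unadjusted p under 0.05 there were 599, 3297 and 1225 genes higher, 4, 16 and 6 neighbours and 4, 16 and 7 list genes. Neighbours within 10 loci gave 37 calls in imbibed and 12 in salt seeds, and those within 25 kb gave 11 in salt seeds, as more loci were counted. A mean of at least 5 CPM kept 3, 2 and 2 of the 10 genes in dry, imbibed and salt seeds and left out the others, whose own mean is lower. No paired analysis was possible because the recovered libraries carry no replicate numbers. Counts over all genes, neighbours and lists could not be recomputed without the salt ΔDS library that stood apart.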
